A study of Mus musculus with 12 samples.

Results

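The genes described are 10 members of the cyclic AMP (cAMP) pathway that keeps the mammalian oocyte arrested in meiotic prophase, picked by gene symbol out of the 24562 genes with counts in the deposited tables. They are the receptors Gpr3 and Gpr12, the G protein subunit gene Gnas, the adenylyl cyclases Adcy3 and Adcy9, the phosphodiesterases Pde3a and Pde2a, and the protein kinase A subunits Prkaca, Prkar1a and Prkar2b. RNA-Seq was performed on 12 pools of 18 to 45 oocytes, 3 pools per cohort, from CD-1 mice. The cohorts were PND 13 and PND 40, PND being the postnatal day, and between them PND 16, divided by body weight into lighter (PND 16 small) and heavier (PND 16 large) mice. No cohort received gonadotropins, the oocytes were released from antral follicles with the germinal vesicle intact, and cumulus cells were stripped off by pipetting. All cohorts also shared milrinone in the collection medium, an inhibitor of PDE3 enzymes that blocks cAMP breakdown and so holds meiosis by acting on the product of one of the genes described. PND 16 large and PND 40 oocytes are called competent and PND 13 and PND 16 small oocytes non-competent after the study's assignment of whole cohorts, and competence was not scored in these pools. The study describes the 3 pools of a condition as independent and made from oocytes of 3 mice, but the labels do not tie a pool to its mice. The p-values therefore measure the spread between pools, and whether that equals the spread between mice is not known.

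In a fully grown oocyte, GPR3 and its relatives signal without a known need for added ligand through the stimulatory G protein. The alpha subunit of this protein is encoded by Gnas, and adenylyl cyclases then make cAMP. The cAMP activates protein kinase A by releasing its catalytic subunits from regulatory subunits, and the kinase keeps the cell cycle kinase CDK1 inactive through WEE2 and CDC25B. PDE3A breaks cAMP down when cyclic GMP, supplied by granulosa cells through gap junctions and made there by the receptor NPR2, no longer inhibits it, and meiosis then resumes.

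Total counts per pool ranged from 17671193 to 27418358. Levels are given as CPM, a gene's count relative to the TMM-scaled total of its pool, and thus as shares of a pool's RNA, in which the amount per oocyte and the number of oocytes cannot be told apart. The 8 oocyte markers (among them Zp1, Zp2, Zp3 and Gdf9) summed to 13197.8 to 13868.5 CPM in the PND 40 pools. In the pools of the other cohorts these markers summed to more, 14569.2 to 16357.9 CPM. The 12 granulosa or cumulus cell markers summed to between 154 and 189 CPM in the 6 competent pools. They summed to 448, 130 and 515 CPM in PND 13 replicates 1, 2 and 3, and to 186, 558 and 251 CPM in the PND 16 small replicates, so 3 of the non-competent pools stood apart (PND 13 replicates 1 and 3 and PND 16 small replicate 2). Of these markers Slc38a3 was at 0, in PND 13 replicate 2 and PND 16 small replicate 1, and the other 11 were detected in every pool. Nr5a2, Kitl and Cyp19a1, which varied least, made up most of the sum outside the 3 high pools. By Inha, PND 13 replicate 2 (2.34 CPM) and PND 16 small replicate 1 (4.42 CPM) were below the competent pools (11.4 to 20.7 CPM), as they were by Fst (0.899 and 0.243 against 2.39 to 6.59 CPM), so without the high pools the non-competent group still held pools unlike the competent ones in these markers. The 5 theca or steroidogenic cell markers summed to 44.6, 53.6 and 31.7 CPM in these 3 pools and to at most 11.5 CPM in the other pools, but Hsd3b1 alone carried these sums (41.2, 50.1 and 28.5 CPM), with Cyp17a1 and Lhcgr at or near 0 and Star and Cyp11a1 no higher than in other pools. Of the 5 blood or endothelial cell markers, the hemoglobin genes Hbb-bs and Hba-a1 were at 0 in all pools. Pecam1 was at 52.0 to 64.6 CPM in every pool. Ptprc reached at most 1.34 CPM (PND 16 large replicate 2) and Cdh5 at most 0.143 CPM (PND 13 replicate 1). The ribosomal transcript Rn45s took 1.46 to 2.98% of the counts in non-competent pools and 0.52 to 0.954% in competent pools, and its part in the differences below was not tested.

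Upstream sequences of 3 members are shown from RefSeq (GRCm38.p6), whose table held start sites for 9 of the 10 members. Gpr3 was chosen as the receptor of the pathway with a single annotated start, Pde2a as the member called in most comparisons, and Prkar1a as the member with a complete cAMP response element, the site bound by CREB-family factors downstream of protein kinase A. Each is the 250 bases before a start site on the gene's strand, at chr4:133212537-133212786 (minus), chr7:101421441-101421690 (plus) and chr11:109650699-109650948 (plus), respectively. Capitals mark TGACGTCA, the complete element, in Prkar1a, and TGACG or its reverse complement, the shorter core, in the others.
Gpr3: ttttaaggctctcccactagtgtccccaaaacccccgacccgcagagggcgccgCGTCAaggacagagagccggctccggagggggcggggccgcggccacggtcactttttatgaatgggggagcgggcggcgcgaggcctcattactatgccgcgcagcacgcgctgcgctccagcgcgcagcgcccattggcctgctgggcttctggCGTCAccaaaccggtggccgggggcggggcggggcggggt
Pde2a: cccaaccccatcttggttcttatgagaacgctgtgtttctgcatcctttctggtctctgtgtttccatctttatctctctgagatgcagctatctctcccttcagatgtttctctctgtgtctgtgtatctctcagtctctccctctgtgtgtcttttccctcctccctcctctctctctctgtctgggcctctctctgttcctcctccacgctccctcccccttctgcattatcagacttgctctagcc
Prkar1a: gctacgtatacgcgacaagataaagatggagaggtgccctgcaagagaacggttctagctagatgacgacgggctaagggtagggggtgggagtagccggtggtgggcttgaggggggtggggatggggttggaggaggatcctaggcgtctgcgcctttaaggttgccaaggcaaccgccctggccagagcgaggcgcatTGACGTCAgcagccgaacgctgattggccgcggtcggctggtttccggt
Searched on both strands of the 300-base windows that also include 50 bases after the start, TGACGTCA occurred in 1.79% of 32851 mouse windows and TGACG, which the complete element contains, in 20.8%. Among the members, the complete element was found at 2 overlapping starts of Prkar1a alone. The Gpr3 window held 2 copies of the core, as did 1 start of Prkaca. The Pde2a window printed held none, whereas another of the 5 listed Pde2a starts held 1. Starts of Gnas, Adcy9 and Prkar1a also held the core, and the printed Prkar1a sequence has a copy, not capitalized, outside the complete element. CANNTG, the E-box, occurred in 72.3% of windows, TAATTA in 5.29% and TAATTG in 8%, and of these last motifs, bound by the oocyte factor NOBOX, only TAATTG was found, at 1 start of Gpr12. These matches are descriptions of letters, and the counts do not tell which start sites were in use.

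Per kilobase of exon, the members fell into an abundant and a scarce group. Averaged over the 12 pools, Gpr3 stood at 37.6 ± 5.79 CPM per kb (SD, n = 12 pools), Prkar1a at 35.0 ± 1.95, Pde3a at 28.2 ± 2.13 and Gnas at 26.2 ± 4.35. Prkaca followed at 14.8 ± 0.498 CPM per kb, Adcy9 at 13.9 ± 1.79 and Prkar2b at 12.5 ± 4.02. The remaining members were far lower, with Pde2a at 0.448 ± 0.377 CPM per kb, Gpr12 at 0.436 ± 0.228 and Adcy3 at 0.269 ± 0.233. Ranges over pools overlapped between Gpr3 (27.5 to 50.9) and each of Prkar1a, Pde3a and Gnas, between Gnas (up to 35.2) and both Prkar1a and Pde3a, among Prkaca, Adcy9 and Prkar2b, and among the last 3. They did not overlap between Gnas (lowest 20.6) and Prkaca (highest 15.4), or between Prkar2b (lowest 7.85) and Pde2a (highest 1.08). Prkar1a and Pde3a did not overlap either (31.3 and 30.6), but they did with exon lengths from the full annotation, which also exchanged Pde2a and Gpr12. The length of a gene joined all its annotated exons, which for Gnas (10376 bp) include several alternative first exons. A transcript with fewer of these exons would have a higher level per kb, so the rank of Gnas depends on this length.

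Members also ranked differently within their enzyme families. Adcy9 (13.9) and Adcy5 (13.8 CPM per kb) were the cyclases with the highest levels, ahead of Adcy6 at 8.25, while Adcy3 was near the bottom of the family. Pde3a (28.2) and Pde1b (29.9 CPM per kb) led the phosphodiesterases, and with full annotation lengths Pde3a (27.2) was above Pde1b (20.6). Pde3b, the other enzyme of the PDE3 class, was at 17.3 CPM per kb. Among regulatory subunits of protein kinase A, Prkar1a (35.0) was above Prkar2a (20.4) and Prkar2b (12.5), and of the catalytic subunits Prkaca (14.8) was above Prkacb (7.03 CPM per kb).

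**Figure D1:**
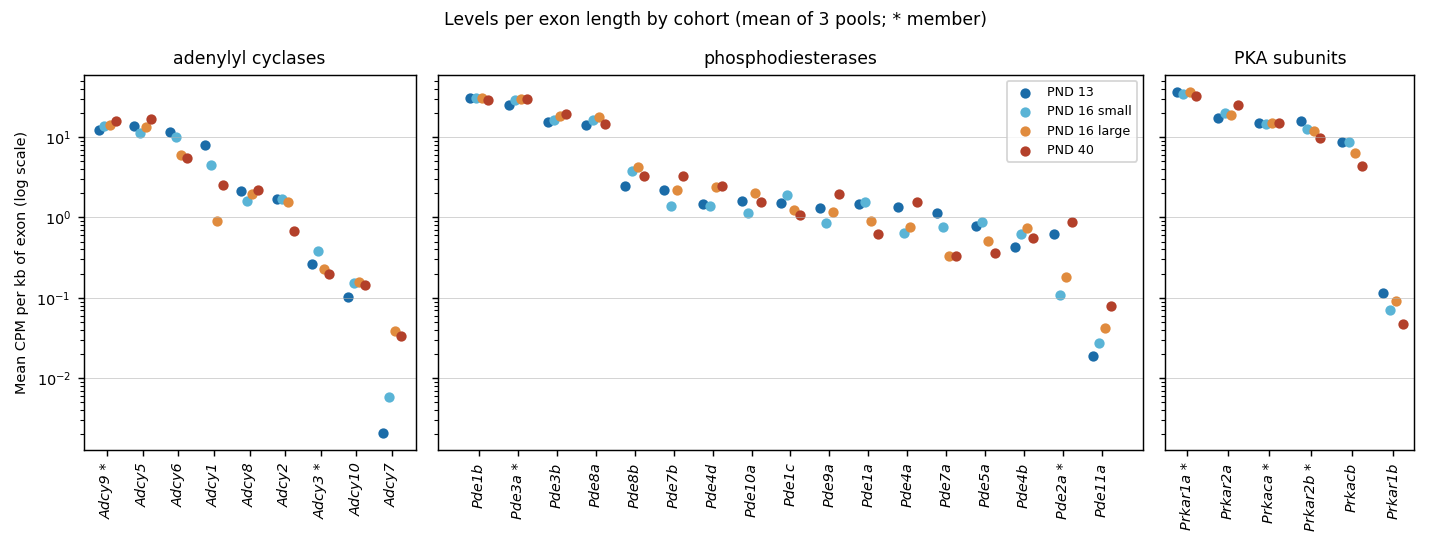
Mean CPM per kb of exon (log scale) of adenylyl cyclases, phosphodiesterases and protein kinase A subunits, with 1 point per cohort (mean of 3 pools) and members marked by an asterisk. Adcy9, Pde3a and Prkar1a are at or near the top of their families in every cohort, Adcy3 is among the lowest cyclases, and Pde2a is low at PND 16 but above several phosphodiesterases at PND 40.

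To ask whether the pathway's transcripts differed across the pubertal transition, each member was tested for any difference among the 4 cohorts with edgeR's quasi-likelihood test. All 10 passed the filter on low counts, and 4 of them had an adjusted p of at most 0.05 (39.7% of all 13943 genes tested did). They were Pde2a (edgeR adjusted p = 0.000835), Gnas (0.00905), Gpr3 (0.00932) and Pde3a (0.0214). Adcy9 (0.0959), Prkar1a (0.143), Prkar2b (0.313), Adcy3 (0.798), Gpr12 (0.812) and Prkaca (0.935) did not pass. Of these 4 genes, only Pde2a differed 1.5-fold or more between cohorts, the size needed, together with an adjusted p of at most 0.05, for a member to be called in a comparison of 2 groups. Leaving out single pools changed some of these results. Pde3a lost its call without PND 13 replicate 1 (adjusted p = 0.0790), PND 13 replicate 3 (0.0851), PND 16 large replicate 1 (0.0587) or PND 16 large replicate 3 (0.0533), all by edgeR. Adcy9 passed without PND 13 replicate 2 (0.0240) or PND 16 small replicate 1 (0.0445), and Prkar2b passed without PND 13 replicate 2 (0.00458).

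**Figure D2:**
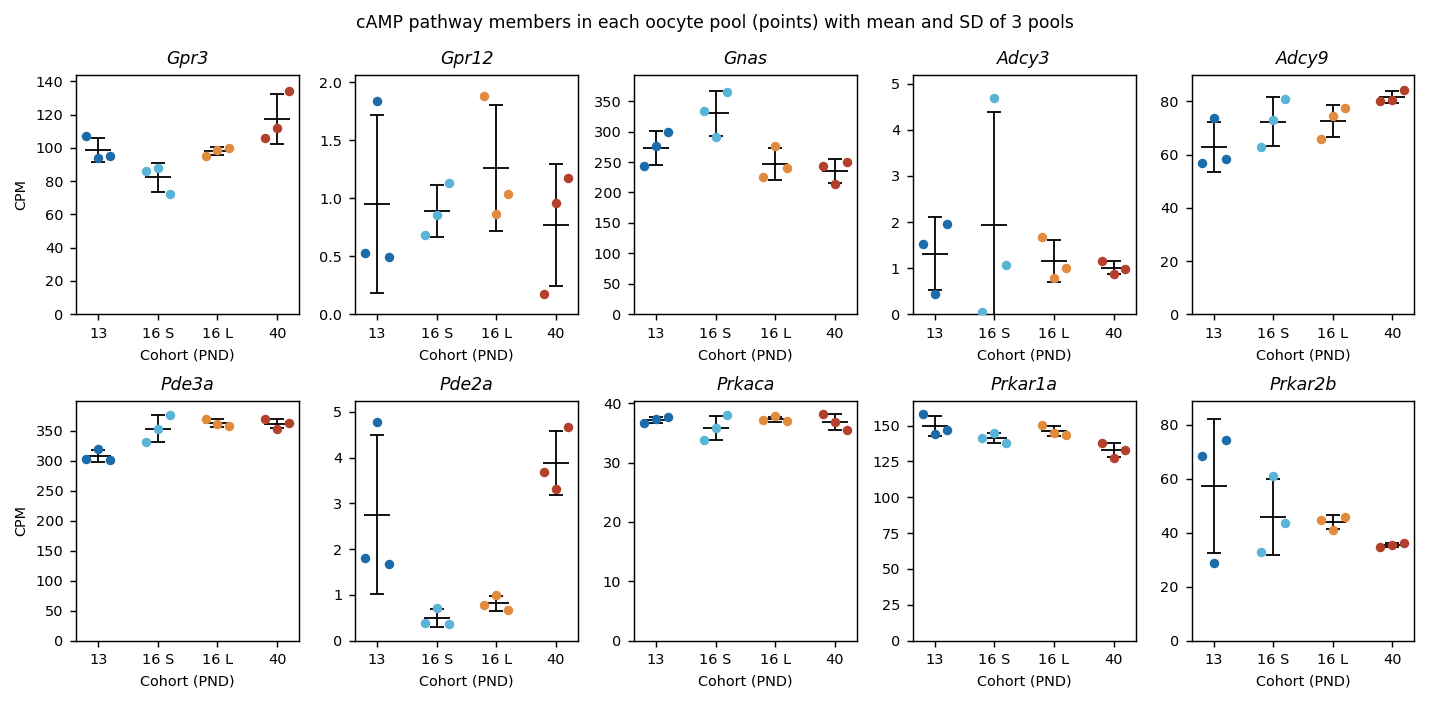
CPM of each member in each oocyte pool (points, 3 per cohort), with the cohort mean and SD (bars), for cohorts PND 13, PND 16 small (16 S), PND 16 large (16 L) and PND 40. Pde2a is low in all 6 PND 16 pools, Gpr3 is lowest and Gnas highest on average in PND 16 small, and Prkaca is level across cohorts.

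Gpr3 (chr4:133209340-133212536, minus strand, GRCm38) encodes the receptor that sustains cAMP production in the oocyte. It measured 107, 93.9 and 95.3 CPM in the 3 PND 13 pools and 86.1, 88.0 and 72.5 CPM in PND 16 small. It measured 95.1, 98.6 and 99.9 CPM in PND 16 large, and at PND 40 106, 112 and 134 CPM. All 3 PND 16 small pools were below every other pool, and all PND 40 pools were above those of both PND 16 cohorts. The mean was 82.2 ± 8.47 CPM in PND 16 small and 117 ± 14.9 CPM at PND 40 (SD, n = 3 pools each), a 1.43-fold difference (log2 0.51 ± 0.10 SE, edgeR adjusted p = 0.00222) that passed on p but not on size. Without PND 40 replicate 1 it was called, at a log2 difference of 0.59. PND 16 large was 0.25 ± 0.10 above PND 16 small on the log2 scale (adjusted p = 0.123, edgeR), and PND 40 was 0.26 ± 0.10 above PND 16 large (adjusted p = 0.143). In annotation, 204 bp of Gpr3 exon lie opposite Cd164l2, which had 3263 to 6350 counts per pool against 1222 to 3649 for Gpr3. The libraries were directional, but the strand setting used in counting is not given in the sources used here.

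Gpr12 (chr5:146582398-146585239, minus strand), a related receptor that also couples to cAMP production, was close to the limit of detection, with 4 to 47 counts per pool. Its level was 0.525, 1.84 and 0.491 CPM at PND 13 and 0.680, 0.853 and 1.13 CPM in PND 16 small. It was 1.88, 0.868 and 1.04 CPM in PND 16 large, and at PND 40 0.172, 0.956 and 1.18 CPM. The cohorts overlapped, and the interval of the competent against non-competent difference ran from −0.81 to 1.09 on the log2 scale, so that changes of up to about that size were not detectable. Gpr6, the remaining receptor of this family, had 0 counts in all 12 pools.

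Gnas (chr2:174284320-174346744, plus strand), the gene of the stimulatory alpha subunit, was highest on average in PND 16 small, where Gpr3 was lowest. It was measured at 244, 276 and 300 CPM at PND 13 and at 334, 291 and 365 CPM in PND 16 small. In PND 16 large it was 225, 276 and 240 CPM, and at PND 40 it was 244, 214 and 249 CPM. Every PND 16 small pool was above every competent pool, while PND 13 overlapped both. The level was 1.34-fold lower in PND 16 large than in PND 16 small (log2 −0.42 ± 0.11 SE, edgeR adjusted p = 0.0227) and 1.40-fold lower at PND 40 than in PND 16 small (log2 −0.49 ± 0.11, adjusted p = 0.00386). Both differences passed on p and were under 1.5-fold. Competent pools averaged 241 CPM and non-competent pools 302 CPM (log2 −0.32 ± 0.09, adjusted p = 0.0152, edgeR), also under 1.5-fold. Gnas is an imprinted locus with several alternative first exons, and the counts sum over them. The antisense gene Nespas, which overlaps it, had 5 to 29 counts per pool against 5102 to 7322 for Gnas.

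The count ratio of Gpr3 to Gnas within a pool does not depend on scaling between pools. It was 0.439, 0.340 and 0.318 at PND 13, 0.257, 0.302 and 0.199 in PND 16 small, 0.422, 0.358 and 0.416 in PND 16 large and 0.434, 0.525 and 0.538 at PND 40. The ratio was thus lower in the 3 PND 16 small pools than in the other 9, a pattern chosen after the values were seen and not tested.

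Adcy9 (chr16:4287529-4420498, minus strand), the more abundant cyclase of the pair, was at 56.7, 73.6 and 58.4 CPM at PND 13 and at 62.8, 73.1 and 81.0 CPM in PND 16 small. It was at 65.9, 74.7 and 77.3 CPM in PND 16 large, and at PND 40 at 80.0, 80.6 and 84.3 CPM. PND 40 pools were above all PND 13 pools, by 1.30-fold (log2 0.38 ± 0.12 SE, edgeR adjusted p = 0.0253), which did not reach 1.5-fold. In the other comparisons its adjusted p exceeded 0.05.

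Adcy3 (chr12:4133103-4213525, plus strand), a calmodulin-sensitive cyclase, varied more between pools than between cohorts. It had 32, 11 and 48 counts in the PND 13 pools, 1, 99 and 18 in PND 16 small, 41, 20 and 25 in PND 16 large and 27, 22 and 27 at PND 40. The highest and the lowest values, 4.69 and 0.0486 CPM, both came from PND 16 small. The pool with 4.69 CPM was also the one with the most granulosa marker RNA, and over the 12 pools Adcy3 correlated with the log2 granulosa marker sum at r = 0.61. That r describes 12 points that share their libraries, and its part in the values was not tested. Adcy3 shares 1380 bp of exon with Cenpo on the opposite strand, a gene with 2489 to 4242 counts per pool, so the few Adcy3 counts are uncertain.

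Pde3a (chr6:141249269-141507448, plus strand), the enzyme that degrades oocyte cAMP at meiotic resumption and the target of milrinone, was lowest at PND 13. It was measured at 303, 320 and 301 CPM at PND 13, at 331, 353 and 377 CPM in PND 16 small, at 370, 362 and 357 CPM in PND 16 large, and at PND 40 at 369, 353 and 363 CPM. The 9 later pools were all above the 3 PND 13 pools. The mean was 308 ± 10.2 CPM at PND 13, 363 ± 6.51 CPM in PND 16 large, and at PND 40 362 ± 7.84 CPM. The difference was 1.18-fold for PND 16 large vs. PND 13 (log2 0.24 ± 0.06 SE, edgeR adjusted p = 0.0141) and 1.17-fold for PND 40 vs. PND 13 (0.23 ± 0.06, adjusted p = 0.0115), below the 1.5-fold limit. PND 16 small was 1.15-fold above PND 13 (0.20 ± 0.06, adjusted p = 0.106, edgeR). From PND 16 large to PND 40 the difference was −0.0041 with an interval of −0.13 to 0.12 on the log2 scale. Leaving out the 3 pools with high granulosa markers kept only PND 13 replicate 2, the highest pool of that cohort for Pde3a. The log2 differences from it, 0.19 for PND 16 large and 0.18 for PND 40, are given without a test. With total-count scaling of all 12 pools, the test across cohorts gave an adjusted p of 0.10 (edgeR).

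Pde2a (chr7:101421691-101512827, plus strand), a phosphodiesterase stimulated by cyclic GMP, was the member with the widest range. It was low in both PND 16 cohorts and higher before and after. The 3 PND 13 pools held 38, 122 and 41 counts (1.81, 4.77 and 1.68 CPM), the PND 16 small pools 8, 15 and 6 (0.389, 0.711 and 0.356 CPM), the PND 16 large pools 19, 25 and 17 (0.777, 0.986 and 0.677 CPM), and the PND 40 pools 86, 83 and 127 (3.69, 3.31 and 4.67 CPM). No PND 16 pool reached the lowest PND 13 or PND 40 pool.

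Pde2a was the 1 member called in PND 16 small vs. PND 13, where 0.373% of genes tested were called, and it was 5.59-fold lower in PND 16 small (log2 −2.48 ± 0.48 SE, edgeR adjusted p = 0.0348). It was also the 1 member called in PND 16 large vs. PND 13 (13.3% of genes called), 3.38-fold lower in PND 16 large (log2 −1.76 ± 0.45, adjusted p = 0.0132, edgeR). Pde2a rose 4.75-fold from PND 16 large to PND 40 (3.66% of genes called; log2 2.25 ± 0.46, adjusted p = 0.0117), and it was 7.88-fold higher at PND 40 than in PND 16 small (17.2% of genes called; log2 2.98 ± 0.49, adjusted p = 0.000648). These comparisons share cohorts and so are not independent of each other. PND 16 large vs. PND 16 small (0.73 ± 0.49, adjusted p = 0.356) and PND 40 vs. PND 13 (0.49 ± 0.43, adjusted p = 0.405) were not called by edgeR.

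The call at PND 40 vs. PND 16 small held without each pool, and the others did not. PND 16 small vs. PND 13 lost its call without PND 13 replicate 2, which moved the log2 difference to −1.84 (adjusted p = 0.0594). It also lost it without PND 13 replicate 3 (−2.74, 0.112) or PND 16 small replicate 3 (−2.33, 0.128), with total-count scaling (−2.57, 0.0539) and in a model of only the 6 pools compared (−2.49, 0.377). PND 16 large vs. PND 13 lost it without PND 13 replicate 2 (log2 −1.11, adjusted p = 0.0662), PND 16 large replicate 1 (−1.74, 0.0526) or replicate 3 (−1.65, 0.0524). PND 40 vs. PND 16 large lost it without PND 16 large replicate 1 (2.21, adjusted p = 0.0533), replicate 3 (2.13, 0.0632) or PND 40 replicate 3 (2.10, 0.0556), all by edgeR. Without the 3 pools with high granulosa markers, the calls of PND 40 against PND 16 large (2.25, adjusted p = 0.00314) and PND 16 small (3.37, 0.000370) remained by edgeR. PND 13 was then a single pool, replicate 2, which has its highest Pde2a level, and the log2 differences from it, −3.66 for PND 16 small and −2.54 for PND 16 large, are given as values without a test. In GENCODE, 3955 bp of Pde2a exon are shared on the same strand with Gm45837, a gene for which no count was listed.

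**Figure D3:**
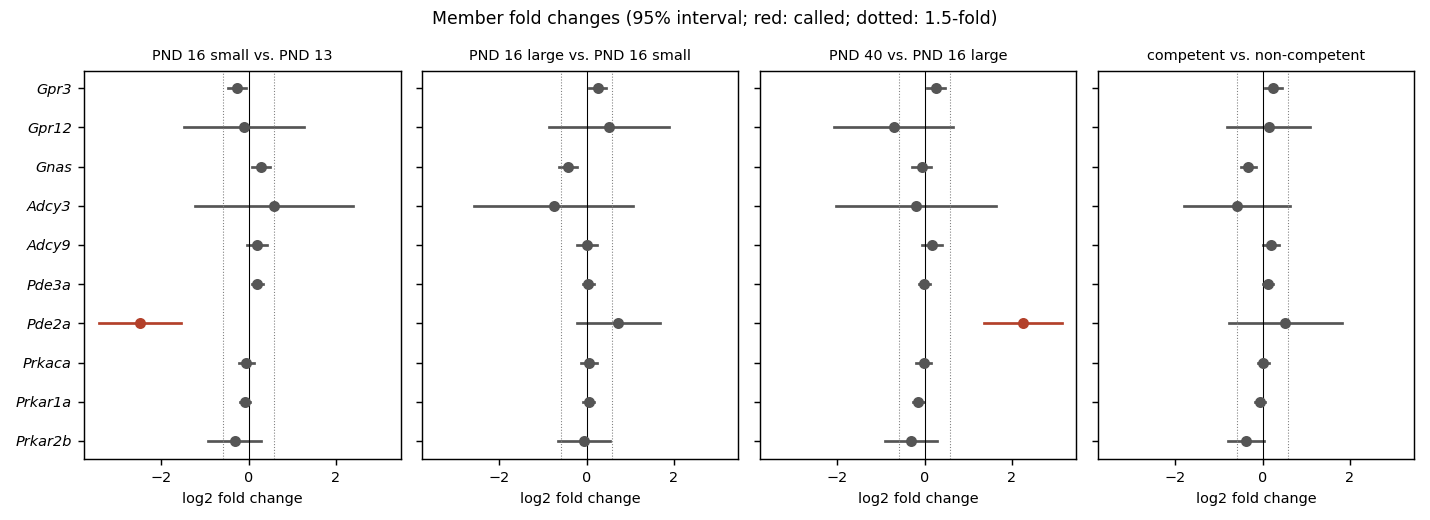
Log2 fold change (points) of the 10 members in 4 comparisons, with approximate 95% intervals (lines, from a normal quantile). Called members are in red, and dotted lines mark 1.5-fold. Pde2a is called lower in PND 16 small against PND 13 and higher at PND 40 against PND 16 large, while Gpr12 and Adcy3 have wide intervals and Prkaca and Prkar1a narrow ones.

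No member was called in PND 40 vs. PND 13 (18.9% of genes called), in PND 16 large vs. PND 16 small (6.19%) or in competent vs. non-competent oocytes (15.0%) by edgeR. At an unadjusted p under 0.05 there were 5, 2 and 3 of the 10 members, respectively, against 6008, 3934 and 5865 of the 13943 genes tested, so the members' shares were near or below those of all genes. DESeq2 called 1 member in the first of these, Prkar2b, and none in the other two, and limma called none in any. The median log2 difference of the 10 members between competent and non-competent oocytes was 0.08, against −0.0046 over all genes tested.

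The catalytic subunit Prkaca (chr8:83972993-83996443, plus strand) was the steadiest member. It ranged from 36.6 to 37.6 CPM at PND 13, from 33.9 to 38.0 CPM in PND 16 small, from 36.9 to 37.8 CPM in PND 16 large and from 35.5 to 38.3 CPM at PND 40. The interval of its competent against non-competent difference was −0.11 to 0.15 on the log2 scale. Prkar1a (chr11:109649405-109669656, plus strand), which encodes the type I regulatory subunit that binds and inhibits the catalytic subunit, measured 158, 144 and 147 CPM at PND 13 and 141, 145 and 138 CPM in PND 16 small. It measured 150, 145 and 144 CPM in PND 16 large, and at PND 40 137, 128 and 133 CPM. The PND 40 pools were below all other pools, and the difference from PND 13 was −0.17 ± 0.06 on the log2 scale (edgeR adjusted p = 0.0507), which just missed the threshold. The count ratio of Prkar1a to Prkaca stayed between 3.47 and 4.31 in all pools.

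Prkar2b (chr12:31958476-32061296, minus strand), the type II regulatory subunit, was the member that followed the granulosa markers most closely. It was measured at 68.4, 28.7 and 74.4 CPM at PND 13 and at 32.7, 61.0 and 43.7 CPM in PND 16 small. It was 44.8, 41.0 and 45.9 CPM in PND 16 large, and at PND 40 34.7, 35.4 and 36.0 CPM. The 3 pools above 60 CPM were the 3 with the highest granulosa marker sums, and over the 12 pools its log2 level correlated with the log2 marker sum at r = 0.93, whereas Prkaca gave r = −0.05. These r values are descriptions of 12 pools, and the part of granulosa RNA in the Prkar2b level was not tested.

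Prkar2b was 1.61-fold lower at PND 40 than at PND 13 (log2 −0.69 ± 0.31 SE, edgeR adjusted p = 0.110), which was not called. DESeq2 called it (log2 −0.71, adjusted p = 0.0352), and edgeR called it without PND 13 replicate 2, at a log2 difference of −1.04. PND 16 large vs. PND 13 was −0.38 ± 0.31 (adjusted p = 0.395, edgeR). Without PND 13 replicate 2 it was called at −0.72. Leaving out the 3 pools with high granulosa markers removed the 3 highest Prkar2b pools and left PND 13 with replicate 2 alone, the lowest pool of all 12, so the difference of 0.62 in the other direction was fixed by that choice and is given without a test.

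**Figure D4:**
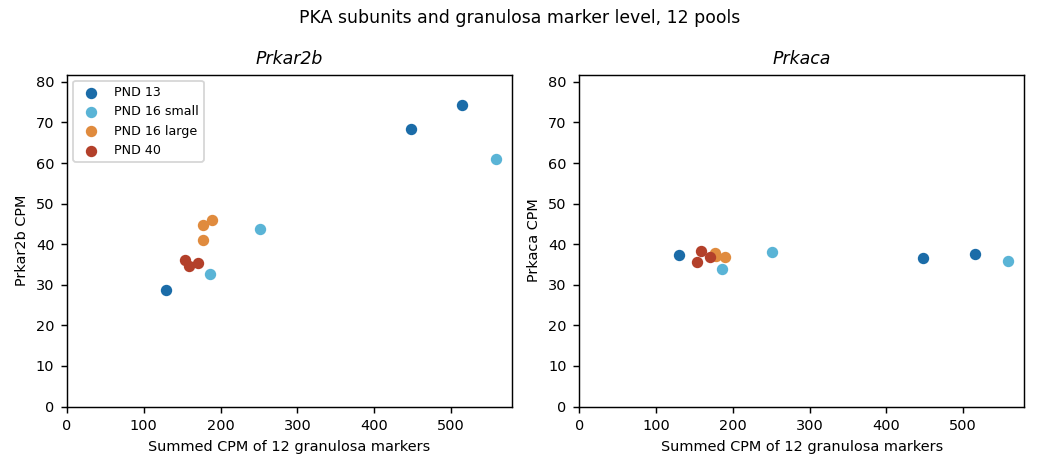
CPM of Prkar2b (left) and Prkaca (right) against the summed CPM of 12 granulosa markers, with 1 point per pool colored by cohort. The 3 pools with marker sums of 448 to 558 CPM are also the 3 highest for Prkar2b, and Prkaca lies between 33.9 and 38.3 CPM at every marker level.

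The rest of the cAMP pathway was followed in a list of 80 further genes, of which 68 were tested. In competent vs. non-competent oocytes 15 of the 68 were called, 2 higher and 13 lower, against 3.78% of all genes tested called higher and 11.2% called lower. The median log2 difference of the 68 genes was 0.03. Without the 3 pools with high granulosa markers 14 were called, 12 of them among the 15. The other 2 included Npr2, whose high pools were those left out. The share of all genes called without these pools was not counted, so this number describes the setting and not the pathway. The counts by role below, in roles of 4 to 14 tested genes, stand against the same shares of all genes (3.78% higher and 11.2% lower). No test of the list or of a role against other genes was made.

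Among receptors and genes of cyclic GMP supply, 0 of 6 tested genes were called by edgeR, with 2 at an unadjusted p under 0.05, as were 5865 of all 13943 genes tested. Npr2, the granulosa receptor that makes cyclic GMP, was at 5.21, 0.156 and 7.37 CPM at PND 13 and at 0.437, 3.56 and 0.652 CPM in PND 16 small, against 0.796 to 1.99 CPM in competent pools. Its high pools were the same 3 that had high granulosa markers. It was not called (log2 −1.12 ± 0.71 SE, adjusted p = 0.247, edgeR), and leaving out those 3 pools, its highest non-competent ones, fixed the difference in the other direction (1.71, given without a test). Gja4, the connexin of the oocyte side of the junction, was higher in all competent pools (493 to 596 CPM) than in all non-competent pools (357 to 482 CPM), by 1.24-fold (adjusted p = 0.00583), below the size for a call.

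Of 12 G protein genes and regulators, 2 were called, both lower. They were Ric8a and Ric8b, chaperones of G protein alpha subunits, of which RIC8B serves the stimulatory subunit. Ric8b fell from 12.6 to 7.64 CPM (log2 −0.73 ± 0.13 SE, edgeR adjusted p = 0.000746) with no overlap between groups, and Ric8a from 9.44 to 5.44 CPM (−0.80 ± 0.22, adjusted p = 0.0150) with overlap.

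Adenylyl cyclases Adcy6 and Adcy1 were the 2 called of 7 tested. Adcy6 fell from 64.8 to 34.8 CPM (log2 −0.90 ± 0.11 SE, edgeR adjusted p = 5.24e-05), with 54.0 to 72.9 CPM in non-competent pools and 29.7 to 40.0 CPM in competent pools. Adcy1 averaged 76.6 CPM in non-competent and 21.0 CPM in competent pools (−1.87 ± 0.59, adjusted p = 0.0348), and the competent pools spread from 1.60 CPM in PND 16 large replicate 1 to 38.8 CPM at PND 40. The Adcy1 call was lost when any 1 of 8 pools was left out (adjusted p up to 0.0736, edgeR). These were PND 13 replicates 1, 2 and 3, PND 16 small replicate 1, PND 16 large replicates 2 and 3 and PND 40 replicates 1 and 2. The call was also lost without the 3 pools with high granulosa markers (0.150) and with no filter on low counts (0.0578). The member Adcy9 averaged 67.6 CPM in non-competent and 77.1 CPM in competent pools (0.19 ± 0.10, adjusted p = 0.142), and whether it differed in response from Adcy6 was not tested.

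Of 14 phosphodiesterases, 1 was called higher and 3 lower. Pde4d, a cAMP-specific enzyme, rose from 9.47 to 16.1 CPM (log2 0.76 ± 0.15 SE, edgeR adjusted p = 0.00171), and its groups did not overlap. Pde7a, also cAMP-specific, fell from 6.11 to 2.17 CPM (−1.49 ± 0.23, adjusted p = 0.000293), and Pde1a, activated by calcium and calmodulin, fell from 7.58 to 3.85 CPM (−0.97 ± 0.21, adjusted p = 0.00337). Pde5a, a cyclic GMP-specific enzyme named here after its values were seen, fell from 6.62 to 3.49 CPM (−0.92 ± 0.21, adjusted p = 0.00402). These 4 genes were all scarce beside Pde3a, which averaged 331 CPM in non-competent and 362 CPM in competent pools (0.13 ± 0.06, adjusted p = 0.112).

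Among the 4 tested protein kinase A subunits and inhibitors, 2 were called, both lower. The catalytic subunit Prkacb fell from 45.2 to 28.1 CPM (log2 −0.69 ± 0.13 SE, edgeR adjusted p = 0.00117), with 41.6 to 47.8 CPM in the non-competent pools and 21.4 to 36.1 CPM in the competent pools. Prkaca, the other catalytic subunit, averaged 36.5 and 37.1 CPM in the same groups. The inhibitor gene Pkib fell from 4.33 to 2.00 CPM (−1.12 ± 0.31, adjusted p = 0.0136), a call that was lost without the 3 pools with high granulosa markers (−0.87, adjusted p = 0.0907).

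Of 11 A-kinase anchoring proteins, which tether the kinase within the cell, Akap6 rose from 1.39 to 3.09 CPM (log2 1.15 ± 0.25 SE, edgeR adjusted p = 0.00345) and Akap9 fell from 104 to 62.5 CPM (−0.73 ± 0.13, adjusted p = 0.000912). Among 14 effectors and cell cycle targets, 3 were called, all lower. The transcription factor gene Creb1 fell from 15.3 to 8.07 CPM (−0.92 ± 0.16, adjusted p = 0.000825) and its relative Crem from 2.74 to 1.49 CPM (−0.88 ± 0.30, adjusted p = 0.0391). The Crem call was lost when any 1 of 9 pools was left out (adjusted p up to 0.0847, edgeR). These were all of PND 13, all of PND 16 large, PND 16 small replicate 1 and PND 40 replicates 2 and 3. The call was also lost without the 3 pools with high granulosa markers (0.118) and with no filter on low counts (0.0547). Wee1, named after its values were seen, fell from 89.1 to 48.4 CPM (−0.88 ± 0.11, adjusted p = 8.85e-05). Wee2, the oocyte kinase of this family and a target of protein kinase A, averaged 652 CPM in non-competent and 767 CPM in competent pools (0.23 ± 0.07, adjusted p = 0.0174), below 1.5-fold, and Cdc25b, the opposing phosphatase, 121 and 137 CPM (0.18 ± 0.10, adjusted p = 0.186).

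**Figure D5:**
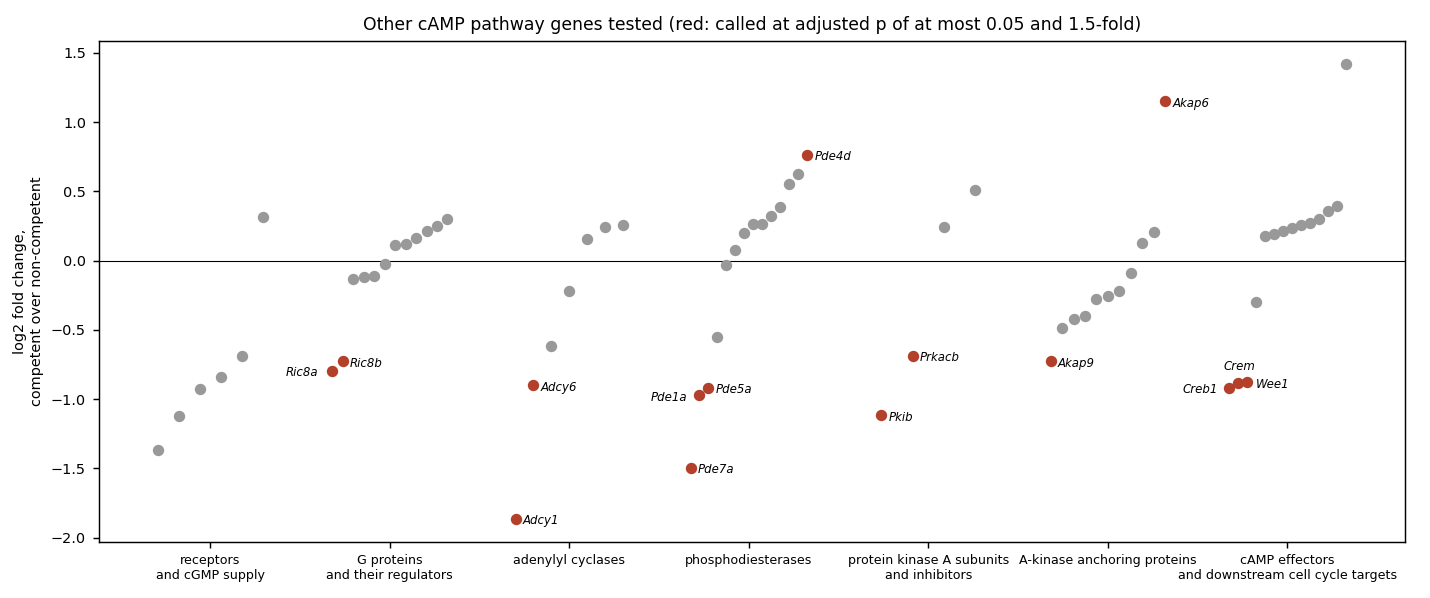
Log2 fold change, competent over non-competent, of the 68 other cAMP pathway genes tested, grouped by role (1 point per gene, called genes in red with their names). Of the 15 called genes, Pde4d and Akap6 lie above 0 and the other 13 below.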

How the data were processed

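The authors made rRNA-depleted, directional libraries, obtained 50 bp HiSeq reads and used the Rosalind platform to process them. The submitters' notes name FastQC, STAR, HTSeq, DESeq, DESeq2 and HOMER and the build mm10 (GRCm38), without versions or settings. The authors deposited raw counts of reads per gene, not normalized. They also deposited log2 values, which were checked to be the log2 of the count divided by a pool's size factor, plus 1. The counts of all 12 pools, grouped by their labels, were tested in R 4.3.3 with edgeR 4.0.16 (filterByExpr with a minimum count of 10, TMM scaling, robust quasi-likelihood fit). For pairwise contrasts and the test of any difference, 1 model of the 4 cohorts was used, and for competent vs. non-competent oocytes a model of 6 pools against 6. P-values were two-sided and Benjamini-Hochberg adjusted across the 13943 genes that passed the filter, and calls needed an adjusted p no higher than 0.05 with a change of 1.5-fold or more. Standard errors were derived as the size of the log2 difference over the root of its F statistic, and 95% intervals follow from them. The code was tested on simulated data.

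Exon lengths, overlaps and coordinates are from GENCODE M21 (GRCm38). Alternatives used DESeq2 1.42.0, limma 3.58.1 on the log2 values (pseudocount 1 or 0.1), other scalings and filters, a replicate block, the 6 pools of a comparison alone, and each pool left out. Leaving out the 3 pools with the most granulosa marker RNA was added after seeing the data. Reads carry no molecular identifiers, and the spread between pools was used as the error. Total counts ranged from 17671193 to 27418358, and members with at most 127 counts per pool (Gpr12, Adcy3, Pde2a) were the least precise. Members, gene lists and tests were chosen with earlier results of these data known. Named genes were all members and, from the list of other pathway genes, up to 2 called genes per role and direction, those that changed most, with a mean of at least 1 CPM, plus Npr2, Gja4, Wee2 and Cdc25b. Pde5a and Wee1, called but outside this rule, were named after their values were seen. A rule for naming genes with a pattern like that of called members named none, as no member was called in competent vs. non-competent oocytes.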

Additional observations from a re-analysis of the deposited data

Results flagged for a closer look

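Pde2a was the single result marked by a screen for pools far from the rest of their group. The screen covered 20 groups (each member in the 6 competent and the 6 non-competent pools), and chance marks about 1 in 20 groups of like pools. Each group joined cohorts, and Pde2a was called between the non-competent cohorts, so that rate may not hold for it. PND 13 replicate 2 stood at 4.77 CPM among the non-competent pools, and its gap to the next pool was 0.669 of the range of that group, above Dixon's 95% limit for 6 pools. The other PND 13 pools had 1.81 and 1.68 CPM, and the PND 16 small pools had 0.356 to 0.711 CPM. The same pool had the lowest granulosa marker sum of the 12 (130 CPM) and the lowest Prkar2b level (28.7 CPM), and the part of these in its Pde2a level was not tested.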

How the results depend on the processing

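The number of members called depended most on the 1.5-fold criterion. Without it, 2 members were called in PND 16 large vs. PND 13 (Pde3a joining Pde2a), 2 in PND 40 vs. PND 13 (Adcy9 and Pde3a), 1 in PND 16 large vs. PND 16 small (Gnas), 3 in PND 40 vs. PND 16 small (Gpr3, Gnas and Pde2a) and 1 in competent vs. non-competent oocytes (Gnas). The other pathway genes called rose from 15 to 27, 11 higher and 16 lower. The share of all genes passing without the criterion was not counted, so these numbers describe the setting and not the pathway. At an unadjusted edgeR p under 0.05 in competent vs. non-competent oocytes were 5865 of all 13943 genes tested. The same held for 38 of the 68 other pathway genes and 3 of the 10 members. In PND 16 small vs. PND 13 the 1 call (Pde2a) became 0 with total-count scaling, with the replicate block and with only the 6 pools compared. DESeq2 called 1 member in PND 40 vs. PND 13. Leaving out 1 pool at a time gave 0 to 1 members in the 3 comparisons with PND 13 and in that of PND 40 against PND 16 large, 1 to 2 in PND 40 vs. PND 16 small, 0 in the other pairwise comparison and in competent vs. non-competent oocytes, and 3 to 6 in the test of any difference. Other pathway genes called then numbered 13 to 16, and the share of all genes called in these fits was not counted. The 3 pools with high granulosa markers were left out after seeing the data. Without them Prkar2b reversed to 0.62 in PND 16 large vs. PND 13, and Npr2 reversed to 1.71 in competent vs. non-competent oocytes. Those pools were the highest for both genes, and PND 13 was left with 1 pool assumed to vary like the other cohorts, so the choice of pools fixed both directions. The causes of the other changes were not tested.

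Replicate numbers did not pair the pools: the correlation of same-numbered pools' deviations ran from −0.442 to 0.0753 over the pairs of cohorts. The replicate block changed the call of Pde2a in PND 16 small vs. PND 13 (log2 −2.43, adjusted p = 0.0660 by edgeR) and of Crem in competent vs. non-competent oocytes (−0.86, adjusted p = 0.0658). Scaling by total counts moved the median of all genes to −0.12 for PND 16 small and −0.13 for PND 16 large, each against PND 13 (log2), and exchanged Pde3a (adjusted p = 0.10) for Prkar1a (0.0348) in the test of any difference. At 1 to 127 counts per pool, Gpr12, Adcy3 and Pde2a had the widest intervals of the members, so modest differences in them were not detectable.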
